A study of Mus musculus with 3 samples.

Results

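Mast cells were the cells to which the deposited cell table gives the cluster name Mastcells, 207 of the 12670 cells of the series. They numbered 16 in the untreated tumor, 106 in the tumor that regressed under vemurafenib and 85 in the tumor that progressed under it. Vemurafenib inhibits the mutant Braf kinase, and the study profiled single cells of melanomas that arose in the skin of mice to follow each compartment of the tumor under this drug. The mice carried Braf LSL.V600E and Tyr.CreER on a C57BL/6 background (C57BL/6J in the study's methods), some with Rosa26 LSL.tdTomato, and tumors were started by 4-OH tamoxifen on the shaved flank. The tyrosinase promoter drives the recombinase in the melanocyte lineage, so the mast cells are host cells in which the engineered alleles are not meant to be switched on. Each group was 1 tumor of 1 animal, whose cells share their source. Differences between tumors therefore carry no test, and every interval covers counting error only. Mast cells made up 1.52% (0.871 to 2.46, exact binomial 95% interval), 11.1% (9.16 to 13.2) and 12.4% (10.1 to 15.2) of the immune cells. The number of neutrophils, 391, 216 and 4, enters that denominator: leaving them out gave 2.42%, 14.3% and 12.5%.

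Mast cells are long-lived immune cells of the skin and other border tissues that arise from bone marrow progenitors and depend on stem cell factor, the ligand of the receptor Kit. Their cytoplasm is packed with granules in which proteases and amines are held on the sulfated chains of the proteoglycan serglycin, and they release these together with newly made lipids and cytokines when the high-affinity IgE receptor, Mas-related receptors or the interleukin 33 receptor are engaged. Connective tissue mast cells, the kind found in skin, carry the chymase Mcpt4, the tryptase Tpsb2, the elastase-like Cma1 and the carboxypeptidase Cpa3, whereas Mcpt1 and Mcpt2 are known from mucosal mast cells and Mcpt8 from basophils.

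The sequences just before a RefSeq transcript start of 5 genes that the results turn on are shown first: the proteases Cma1, Mcpt4 and Cpa3, which define the cluster, the receptor Mrgprb1 and the histamine-forming enzyme Hdc. They are RefSeq sequences of build GRCm38.p6, 250 bases each, written 5′ to 3′ along the gene, all on the minus strand of the chromosome, at chr14:55944676-55944925, chr14:56062311-56062560, chr3:20242182-20242431, chr7:48456343-48456592 and chr2:126618679-126618928. RefSeq's span of Hdc (chr2:126593659-126624025) and of Cpa3 (chr3:20215616-20242209) reaches past these starts, so their windows lie wholly and partly inside the gene. Capitals mark the letters that GATA factors such as Gata2 are known to bind: AGATAA in Cpa3, AGATAG in Mrgprb1 and, read on the opposite strand, in Cma1, TGATAA in Mcpt4, and TGATAG in Hdc. These 4 motifs were searched on both strands, and no 2 of them can start at the same base.
Cma1: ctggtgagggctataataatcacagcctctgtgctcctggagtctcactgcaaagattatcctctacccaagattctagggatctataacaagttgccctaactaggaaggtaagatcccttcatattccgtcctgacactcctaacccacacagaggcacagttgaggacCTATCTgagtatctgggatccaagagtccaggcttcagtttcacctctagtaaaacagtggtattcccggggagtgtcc
Mcpt4: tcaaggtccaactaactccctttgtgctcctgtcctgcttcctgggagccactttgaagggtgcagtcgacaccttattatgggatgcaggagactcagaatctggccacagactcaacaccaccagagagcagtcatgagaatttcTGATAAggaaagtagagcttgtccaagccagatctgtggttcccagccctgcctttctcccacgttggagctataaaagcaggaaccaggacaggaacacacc
Cpa3: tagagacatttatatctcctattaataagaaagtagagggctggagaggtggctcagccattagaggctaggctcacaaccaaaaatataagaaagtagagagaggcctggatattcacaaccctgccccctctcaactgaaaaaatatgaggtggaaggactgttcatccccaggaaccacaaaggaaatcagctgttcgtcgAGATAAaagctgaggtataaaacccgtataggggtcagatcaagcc
Mrgprb1: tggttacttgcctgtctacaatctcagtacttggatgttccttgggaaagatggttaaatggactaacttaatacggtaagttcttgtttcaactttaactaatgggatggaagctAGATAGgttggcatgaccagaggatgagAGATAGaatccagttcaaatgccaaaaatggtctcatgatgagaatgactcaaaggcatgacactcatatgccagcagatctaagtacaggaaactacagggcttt
Hdc: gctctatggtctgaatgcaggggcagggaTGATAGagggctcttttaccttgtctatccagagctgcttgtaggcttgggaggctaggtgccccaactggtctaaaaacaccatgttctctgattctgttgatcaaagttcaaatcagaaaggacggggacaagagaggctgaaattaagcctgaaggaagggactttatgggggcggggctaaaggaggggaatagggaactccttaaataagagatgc
Each of the 5 held a match, and Mrgprb1 held 2. These genes were not picked by a rule, so their count is no measure of enrichment. Of all 32851 promoters of this length, from 27025 genes, 26.5% held at least 1 match. That share is per promoter. The counts that follow are of genes with a match in any of their promoters, so the 2 are not on the same basis. Of the 15 genes that set mast cells apart most from other immune cells, 12 had an entry, and 5 of these held a match. Of the 6 mast cell markers, 5 had an entry and 4 of these held a match, all but Kit. Of the 11 genes of granule storage and amines, 10 had an entry and 3 of these held a match. Srgn had an entry and no match. The letters TATAAA lay 31 to 26 bases before this start of Cpa3 and 32 to 27 bases before that of Mcpt4, and 2.87% of all promoters held them on the gene's strand in the last 60 bases. A match describes the sequence and does not show that a factor binds there.

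The levels of its markers describe the cluster. The study named its clusters from marker genes in these same counts, so high marker levels here are no test of the label. Expression was read as unique molecular identifiers (UMIs), each standing for 1 captured RNA molecule, counted from its 3′ end so that gene length does not enter. A level is the CPM of a group of cells, a gene's summed UMIs divided by all UMIs of these cells and scaled to 1000000. The mast cell sums held 60441, 329067 and 297322 UMIs in the untreated, regressed and progressed tumor, and triplets of values follow this order throughout. The 6 markers together reached 138085, 114329 and 113251 CPM, 13.8%, 11.4% and 11.3% of all mast cell UMIs. Cma1 (Entrez 17228, chr14:55941451-55944675) had at least 1 UMI in all 207 cells. Cpa3, Tpsb2 and Mcpt4 had at least 1 in every untreated and every progressed mast cell and in 105, 105 and 104 of the 106 regressed ones. Kit was found in 15, 98 and 78 cells and Fcer1a, the IgE-binding chain of the receptor, in 16, 96 and 79 cells. No cell name was shared between the 3 libraries. The median mast cell held 3070.5, 2421.5 and 2984 UMIs.

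No other immune cluster came near these levels. Among the other immune clusters with at least 10 cells, Cma1 ran from 4.68 to 52.1 CPM without treatment, from 123 to 176 CPM under regression and from 14.8 to 49.4 CPM under progression, against 54400.2, 35640.2 and 32477 CPM in mast cells. Fcer1a reached at most 14.1, 118 and 10.3 CPM elsewhere, against 5377, 3103 and 3128 CPM. The plot of the 6 markers shows the regressed tumor's other clusters above those of the other 2 tumors for the 4 proteases. Summed over Cma1, Mcpt4, Tpsb2, Tpsab1 and Cpa3, cells outside the cluster held 16.9, 559 and 62.4 CPM, and 15.3% of the regressed tumor's UMIs of these genes lay outside the cluster, against 4.43% and 4.69%. A Cma1 UMI was found in 35% of regressed NK_T cells, which should lack the gene, at a median of 2652.5 UMIs per cell, and in 4% of untreated and 11.8% of progressed ones, at medians of 4087 and 3900. Apart from 1 regressed cell of a stromal cluster, no cell outside the mast cells held over 3% of its UMIs in these 5 genes. This limit does not part the cluster fully. Single mast cells went as low as 2.45%, 0.289% and 2.23% in the 9 proteases listed below.

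**Figure D1:**
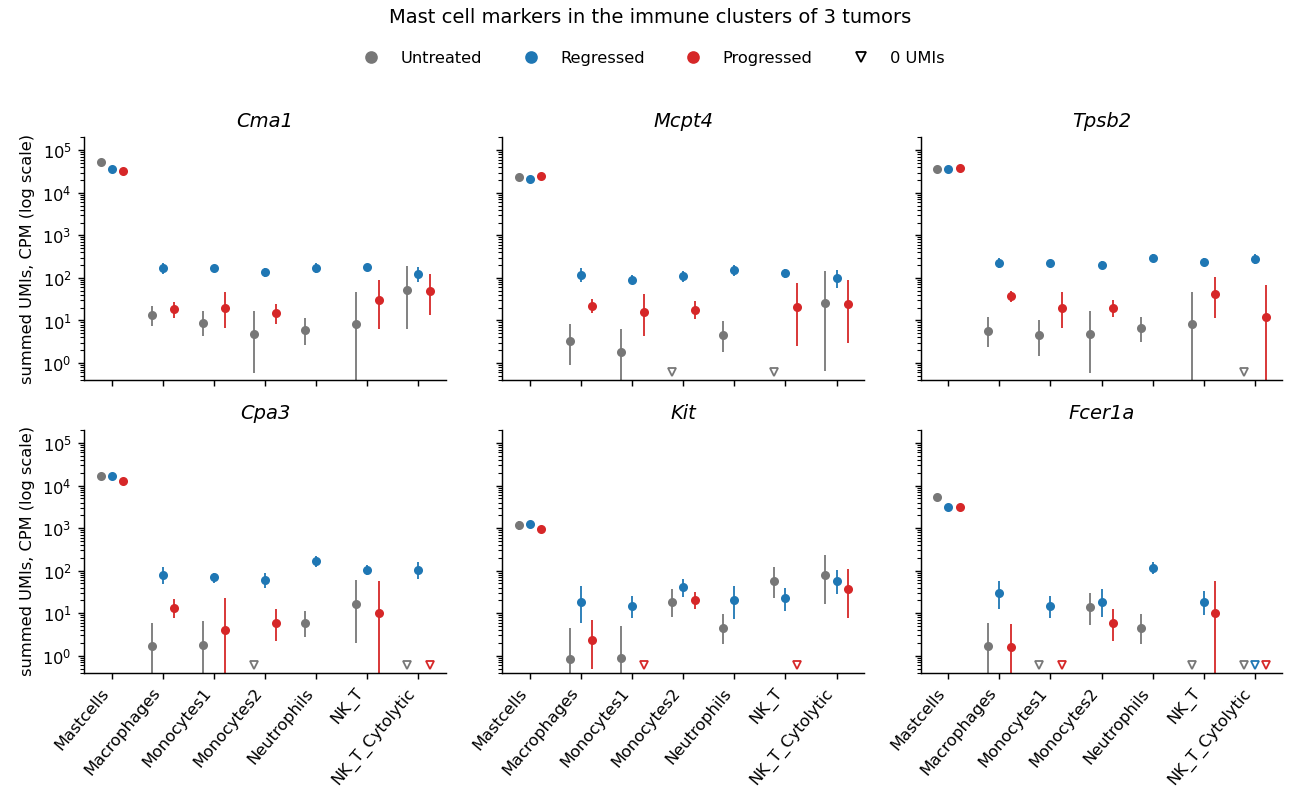
Levels of 6 mast cell markers (CPM of summed UMIs, log axis) in each immune cluster with at least 10 cells, for the untreated (grey), regressed (blue) and progressed (red) tumor, with exact Poisson 95% intervals cut at the lower edge of the axis and open triangles for 0 UMIs. Mast cells lie far above every other cluster for each marker, and the regressed tumor's other clusters lie above those of the other tumors for Cma1, Mcpt4, Tpsb2 and Cpa3.

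The genes that led the cluster were proteases, Mas-related receptors and a heparan sulfate enzyme. Since the clusters were made from the same genes, this is a description. Of 1938 genes with at least 20 UMIs in the mast cells of each treated tumor and a value in the other immune cells, 322 (16.6%) were at least 2-fold higher in mast cells than in all other immune cells in both treated tumors. Of the 15 genes farthest apart, 6 lay within 121 kb of chromosome 14 (chr14:55941451-56062310): Cma1, Cma2, Mcpt2, Mcpt4, Mcpt9 and Mcpt-ps1, members of the chymase locus. The spans of Cma2 and Mcpt-ps1 overlap, so UMIs may be split between them. Hs6st2, an enzyme that adds sulfate to heparan chains, had 86 and 77 UMIs in regressed and progressed mast cells and 1 UMI in all other immune cells of either treated tumor. In the untreated tumor it had 13 UMIs in mast cells and 13 in all other immune cells. Mrgprb1 and Mrgprx2, receptors of the Mas-related family, stood at 2316, 1954 and 1920.5 CPM and 132, 289 and 279 CPM. Rgs13, a regulator of G protein signalling, stood at 563, 295 and 212 CPM. The other 4 were Speer4e, Gm17019, Gm9758 and Gm10354, which lie beside each other on chromosome 5, at 1137 and 531 CPM for Speer4e in the treated tumors. The SPEER family has near-identical copies, so how UMIs split between its members is uncertain.

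As a sum, the granule proteases stood at almost the same level in regressed and progressed mast cells. The 9 listed genes made up 135008, 114536 and 114751 CPM, with a log2 ratio of progressed to regressed of 0.0027 (95% counting interval -0.018 to 0.024). All ratios are on plain totals. Scaling by trimmed means would add 0.19 to each of them and scaling by the median of ratios 0.13. The single proteases stood farther apart than their sum. Mcpt4 stood at 23378, 20588.5 and 25054 CPM, a log2 ratio of 0.28 (0.24 to 0.33). The tryptase Tpsb2 stood at 37144, 36497 and 38793 CPM, with 0.088 (0.051 to 0.12). Tpsab1, annotated as a transcribed pseudogene in the C57BL/6J reference, stood at 2085, 3291 and 4459.8 CPM, with 0.44 (0.32 to 0.56). These 3 were higher in progressed mast cells. Cpa3 was lower in them, at 16611, 17258 and 12868 CPM and a log2 ratio of -0.42 (-0.48 to -0.36). So was Cma2, at 678, 915 and 636 CPM and -0.53 (-0.80 to -0.26). Cma1 differed by -0.13 (-0.17 to -0.095), a direction that turns under the trimmed means. None of the 8 proteases with at least 20 UMIs in the regressed and progressed sums together, the minimum for a gene to be tested against the 2-fold limit, passed it either way, against 4.83% of all 4530 genes tested that were at least 2-fold higher in progressed and 12.1% that were at least 2-fold higher in regressed mast cells. Ctsg and Gzmb, proteases known from neutrophils and killer lymphocytes, were at most 63.9 and 20.2 CPM.

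Single cells of a tumor spread more widely than the tumors did. The 9 proteases took a median of 11.2%, 10.5% and 10.98% of a cell's UMIs by tumor, and from 0.289% to 35.4% over all cells. The 3 ranges overlapped over most of their length. Among the 16 untreated cells, 1 cell held 29.99% of all Cma1 UMIs and 35.5% of all Cpa3 UMIs, so sums of the untreated tumor rest heavily on it.

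**Figure D2:**
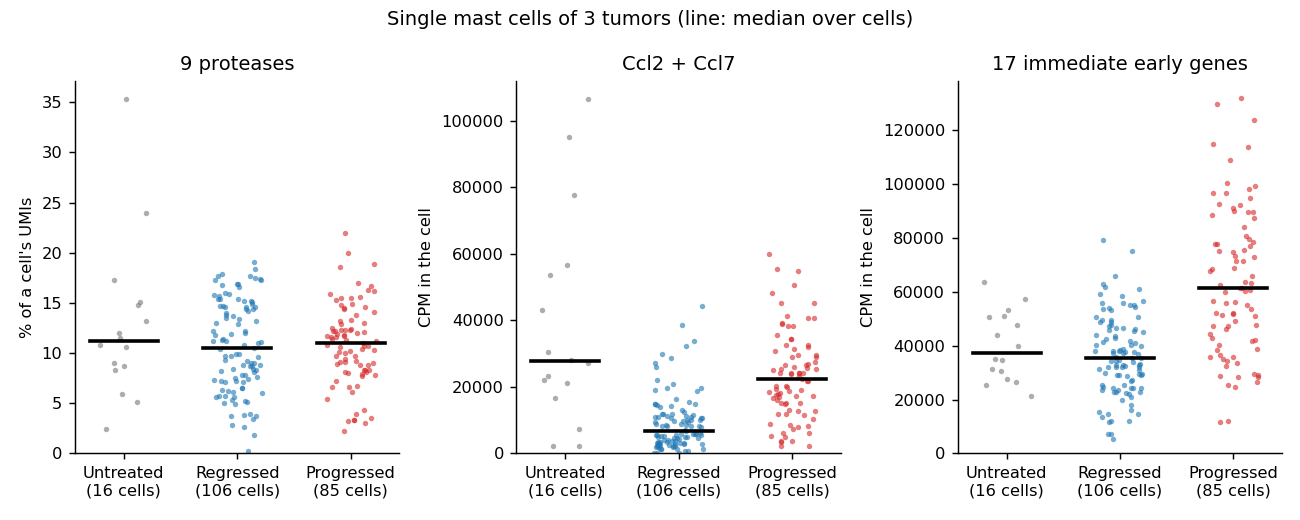
Each point is 1 mast cell, grouped by tumor, with the median as a line; the panels show the share of the cell's UMIs in 9 proteases (%), the level of Ccl2 and Ccl7 together and the level of 17 immediate early genes (both in CPM of the cell). Protease shares overlap between tumors, whereas the chemokine pair is lowest in regressed cells and the immediate early genes are highest in progressed cells.

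The mucosal and basophil proteases were low. Mcpt1 stood at 132, 152 and 148 CPM and Mcpt2 at 149, 125 and 205 CPM, a fraction of the level of Mcpt4. Mcpt9, counted in the same list, stood at 182, 274 and 286 CPM. Its RefSeq span lies inside that of Mcpt2, so how UMIs split between these genes is uncertain. Of the progressed Mcpt2 UMIs, 27 of 61 came from 1 cell. Mcpt8, the basophil protease, had 0, 5 and 1 UMIs. Cd200r3, an activating receptor of mast cells and basophils, stood at 645, 766 and 521 CPM. Prss34, a mast cell and basophil protease, was unevenly spread: 80 UMIs in 5 of 16 untreated cells, 1 UMI in 106 regressed cells, and 38 UMIs in 2 of 85 progressed cells, which held 21 and 17 of them.

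The receptors that tie mast cells to their tissue lay within 2-fold between the treated tumors, apart from Csf2rb, Csf2rb2 and P2rx1. Kit stood at 1175, 1243 and 932 CPM, with a log2 ratio of -0.42 (-0.64 to -0.19). Il1rl1, the receptor of interleukin 33, stood at 1572, 1805 and 1776 CPM, with -0.024 (-0.20 to 0.15). Mrgprb2, the receptor for basic peptides and drugs that make mast cells degranulate, stood at 662, 689.8 and 689 CPM, with -0.00071 (-0.28 to 0.28). For the last 2, counting error alone leaves room for differences of the size of these bounds. Csf2rb, the signalling chain shared by the receptors of interleukin 3, interleukin 5 and GM-CSF, was higher in progressed mast cells, at 165, 234 and 589 CPM and 1.33 (0.94 to 1.74), and so was its paralog Csf2rb2, at 49.6, 60.8 and 172 CPM and 1.5 (0.73 to 2.32). The pair shares much of its sequence, so UMIs may be split between them. P2rx1, an ATP-gated channel, was higher too, with 1.93 (0.94 to 3.05), and all other immune cells gave 1.92. In all, 3 of 10 tested surface receptors were at least 2-fold higher in progressed mast cells and none was 2-fold higher in regressed ones (of all genes, 4.83% and 12.1%). Cysltr1, a leukotriene receptor, had 0 UMIs in all 3 mast cell sums, which allows at most 3 UMIs in each.

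The ligands of these receptors were counted mainly in other cells. Kitl, the stem cell factor gene, stood at 78.9, 122 and 94.2 CPM in the stromal clusters and at 56.5, 448 and 76.4 CPM in blood vessel cells, of which there were 74, 48 and 28. It was thus highest in the regressed tumor in both. Within the stroma, Il33 was lowest in the regressed tumor, at 139.8, 35.95 and 73.1 CPM. The cluster Undefined2 held more of it than the stroma in each tumor, at 249, 72.2 and 132 CPM. In mast cells themselves Kitl had 1, 4 and 1 UMIs and Il33 had 3, 2 and 0.

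The IgE receptor and the proteins that carry its signal summed to close levels in the 2 treated tumors. The 16 genes summed to 12343, 9359.8 and 9572 CPM, a log2 ratio of 0.032 (-0.042 to 0.11), and 0 of the 13 tested passed 2-fold either way (of all genes, 4.83% and 12.1%). Fcer1a differed by 0.012 (-0.12 to 0.14), the beta chain Ms4a2 by -0.19 (-0.44 to 0.052) and the gamma chain Fcer1g, which other myeloid and killer cells share, by -0.035 (-0.17 to 0.10). The adaptors Lat2 and Lcp2 were higher in progressed mast cells, with 0.48 (0.25 to 0.70) and 0.90 (0.24 to 1.58), and the kinase gene Btk was lower, with -0.72 (-1.38 to -0.08). Lat2 stood at 1224, 906 and 1261 CPM and was found in 83 of 106 regressed and 83 of 85 progressed cells. Among inhibitory receptors, Lilrb4a stood at 248, 349 and 407 CPM and the IgG receptor Fcgr2b at 215, 176 and 175 CPM, and 0 of the 7 tested members passed 2-fold (of all genes, 4.83% and 12.1%). The list summed to a log2 ratio of 0.15 (-0.095 to 0.40).

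Gata2, the factor that mast cells need for their identity, stood at 993, 1039 and 1423 CPM, with a log2 ratio of 0.45 (0.24 to 0.66). It was found in 93 of 106 regressed and 77 of 85 progressed cells. Outside the cluster it reached at most 7.23 CPM in untreated and 4.02 CPM in progressed clusters, and 185 CPM in regressed neutrophils. Mitf, the factor shared by mast cells and melanocytes, stood at 82.7, 194 and 172 CPM, and Tal1, a partner of GATA factors in blood cells, at 132, 170.2 and 202 CPM, with -0.18 (-0.74 to 0.37) and 0.25 (-0.30 to 0.80). Gata1 had 0, 10 and 6 UMIs. None of the 10 tested factors passed 2-fold (of all genes, 4.83% and 12.1%).

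Granule storage and amine genes were higher in progressed than in regressed mast cells, almost wholly through 2 genes. The 11 genes summed to 10572, 7767 and 12835 CPM, a log2 ratio of 0.72 (0.65 to 0.80). Hdc, which makes histamine, stood at 3623, 3273 and 5630.3 CPM, with 0.78 (0.67 to 0.89). Srgn, the serglycin core that binds proteases and amines in the granule, stood at 5592, 2732 and 5375 CPM, with 0.98 (0.86 to 1.10). Regressed cells were thus below both other tumors for Srgn, whereas for Hdc progressed cells stood above both. Without Hdc and Srgn the other 9 genes gave 0.054 (-0.12 to 0.23). Slc18a2, which pumps amines into the granule, was higher in progressed cells, with 0.48 (0.09 to 0.87), and Tph1, which begins serotonin synthesis, was lower, at 612, 982 and 767 CPM and -0.36 (-0.61 to -0.11). Of 9 tested members, 0 passed 2-fold either way (of all genes, 4.83% and 12.1%). Ext1, which builds heparan chains, differed by 0.72 (0.051 to 1.40), from 33 and 49 UMIs.

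In all other immune cells together the same list gave -0.87 (-0.93 to -0.81). That pool contains 216 regressed and 4 progressed neutrophils, which also hold Hdc and Srgn, at 2534 and 8029.6 CPM in the regressed tumor. Without neutrophils the pool gave -0.044 (-0.11 to 0.026), a value that mixes clusters of different sign and number. Macrophages gave 0.83 (0.58 to 1.09), Monocytes1 0.60 (0.48 to 0.73), Monocytes2 0.74 (0.57 to 0.91) and NK_T_Cytolytic 0.64 (0.29 to 0.98), on the same side as mast cells, and NK_T -0.34 (-0.65 to -0.051). Srgn alone differed by 1.15 (0.83 to 1.49) in macrophages and 0.65 (0.52 to 0.78) in the cluster Monocytes1, so its higher level in the progressed tumor was shared by myeloid clusters. Outside neutrophils and mast cells, Hdc was at 14.04, 25.7 and 3.70 CPM.

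Genes of the release machinery summed lower in progressed mast cells, with -0.63 (-0.73 to -0.54), through the granule membrane proteins. Cd63, a tetraspanin of the granule membrane, stood at 3706, 6069 and 3296 CPM, with -0.88 (-0.99 to -0.77). Lamp1, a lysosome and granule membrane protein, stood at 49.6, 340.4 and 94.2 CPM, with -1.85 (-2.51 to -1.25). Both were highest in regressed cells. Macrophages also gave lower values in the progressed tumor, -0.80 (-0.98 to -0.62) for Cd63 and -0.47 (-0.69 to -0.26) for Lamp1. Of the fusion proteins, Stx4a was higher in progressed cells, with 1.40 (0.68 to 2.17), and Vamp8 and Rab27b differed by 0.31 (-0.091 to 0.71) and 0.0067 (-0.29 to 0.30). Of 10 tested members, 1 was 2-fold higher in progressed and 1 in regressed mast cells, near the shares over all genes of 4.83% and 12.1%. The genes of lipid mediator synthesis summed to 1886, 2541 and 2785 CPM, with 0.13 (-0.0079 to 0.27). Alox5, the 5-lipoxygenase that begins leukotriene synthesis, was higher in progressed cells, at 248, 137 and 249 CPM and 0.86 (0.31 to 1.43), and its partner Alox5ap differed by -0.16 (-0.38 to 0.07). Ltc4s, leukotriene C4 synthase, had 10 and 22 UMIs, with 1.28 (0.15 to 2.53), and Hpgds, which makes prostaglandin D2, differed by -0.36 (-0.76 to 0.041). Ptgs2, the inducible cyclooxygenase, had 0, 0 and 1 UMIs.

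Among the lists of mast cell products, which are proteases, granule storage, release machinery, lipid mediators and cytokines, the treated tumors stood farthest apart in cytokines, where most of the gap in CPM lay in a pair of monocyte attractants. The 19 genes summed to 25959, 10439 and 24283 CPM, a log2 ratio of 1.22 (1.16 to 1.28). Ccl7 (Entrez 20306, chr11:82045712-82047525) stood at 18133, 6275 and 15939 CPM, with 1.34 (1.27 to 1.42). Its neighbour Ccl2 (Entrez 20296, chr11:82035577-82037452) stood at 6055, 2765 and 5035 CPM, with 0.86 (0.74 to 0.98). The regressed level was the lowest of the 3 for both genes. Ccl7 was found in 16, 99 and 83 of the 16, 106 and 85 cells. Per cell, the pair ranged from 0 to 44367 CPM with a median of 6875 in the regressed tumor, and from 2161 to 60037.5 CPM with a median of 22312 in the progressed tumor. The ranges overlapped, but 76 of 85 progressed and 14 of 16 untreated cells lay above the regressed median.

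Macrophages followed the same order for this pair, at 4127, 720.1 and 3944 CPM for Ccl2 and Ccl7 together, against 24189, 9041 and 20974 CPM in mast cells. Among immune clusters with at least 10 cells, mast cells held the highest level of the pair in each tumor. For the whole list, all other immune cells gave -0.45 (-0.49 to -0.42), the opposite sign. Without neutrophils, which are known for Ccl3, Ccl4, Cxcl2 and Il1b and of which the progressed tumor had 4, other immune cells gave 1.19 (1.14 to 1.24), the same sign as mast cells. That pool also changed in make-up, from 143 to 339 macrophages and from 180 to 17 NK_T cells. The value is therefore not one of level within a cluster.

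Beyond this pair the other 17 genes gave 1.24 (1.08 to 1.41). Of 13 tested members, 6 were at least 2-fold higher in progressed and 1 in regressed mast cells (of all genes, 4.83% and 12.1%). Osm, oncostatin M, stood at 381, 398 and 935 CPM, with 1.23 (0.93 to 1.54), and was found in 35 of 106 regressed and 47 of 85 progressed cells. Il4 and Il13, cytokines of type 2 immunity, were higher in progressed cells, with 0.56 (0.071 to 1.05) and 5.05 (2.46 to 10.40). Il13 had 2, 1 and 30 UMIs, in 1 of 106 regressed and 18 of 85 progressed cells, and NK_T cells held 66.1, 13.00 and 277 CPM of it. Tnf stood at 397, 222 and 394 CPM, with 0.83 (0.39 to 1.27). Il1b was the 1 tested member that was 2-fold higher in regressed cells, with 20 UMIs against 1, and all other immune cells gave -1.96 for it. Neutrophil markers stood at 529 and 20.2 CPM in these mast cells, and their part in the Il1b value was not tested. Il5 and Areg had 0 UMIs in all 3 tumors, with the same upper bounds as given for Cysltr1.

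Other chemokines came from a few cells. Ccl4 had 0, 25 and 220 UMIs, and 4 of the 85 progressed cells held 96.8% of the progressed ones. The same 4 cells held 95.4% of the Ccl3 UMIs and 6.29% of all UMIs. They held 1 UMI of the 7 macrophage markers, and 11.6% to 15.5% of their UMIs were of proteases, at or above the progressed median. Il6 and Ccl1 were concentrated in other cells, with 20 and 10 of 35 Il6 UMIs and 11 and 6 of 18 Ccl1 UMIs in 2 cells each. Of the 37 progressed Cxcl2 UMIs, 1 cell held 78.4%.

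**Figure D3:**
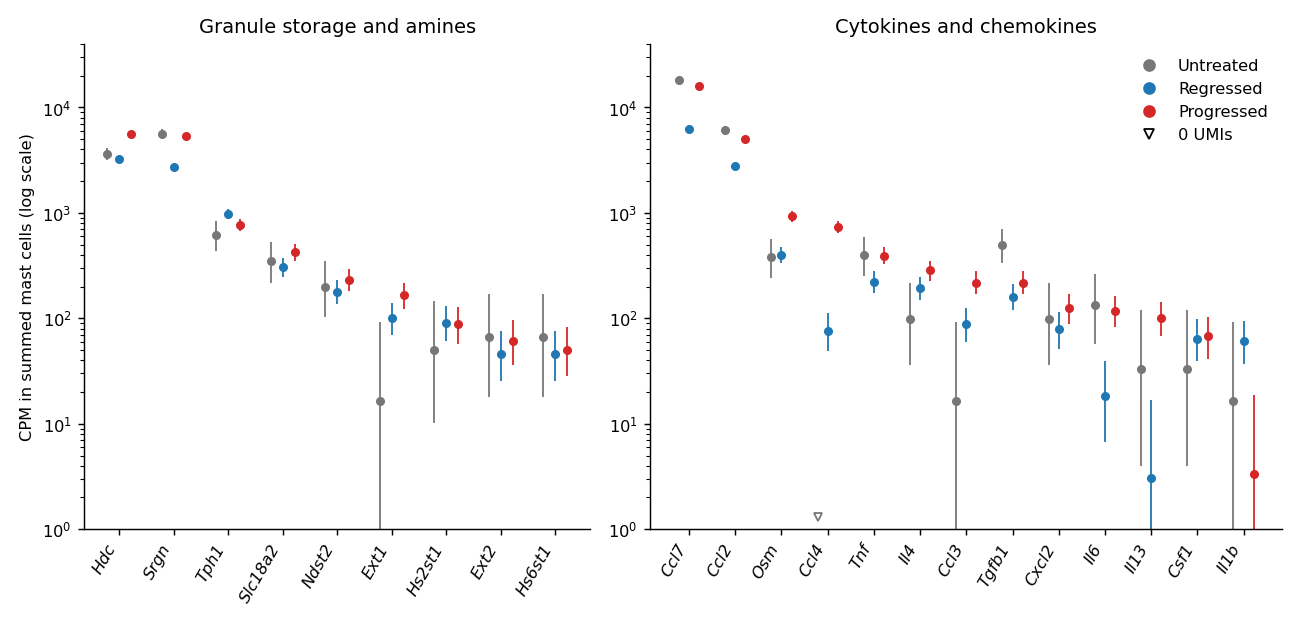
Levels in summed mast cells (CPM, log axis) of the granule storage genes (left) and cytokine genes (right) with at least 20 UMIs in the 2 treated tumors, with exact Poisson 95% intervals, for the untreated (grey), regressed (blue) and progressed (red) tumor. Srgn, Ccl7 and Ccl2 are lowest in the regressed tumor, while Ccl4 is carried by 4 progressed cells.

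Immediate early genes, which cells switch on within minutes of a signal, summed higher in mast cells than in all other immune cells of each tumor. Those other cells held 16300, 11407 and 14948 CPM. The mast cell sum was highest in the progressed tumor. Single mast cells ranged from 5178 to 79260 CPM in the regressed and from 11501 to 131978 CPM in the progressed tumor. The 17 genes summed to 36068, 37889 and 65044 CPM, a log2 ratio of 0.78 (0.75 to 0.81), and 71 of 85 progressed cells lay above the regressed median. Fos stood at 6353, 6093 and 12243 CPM, Junb at 6750.4, 7266 and 14200.1 CPM and Egr1 at 2366, 1817 and 3619 CPM, with log2 ratios of 1.01, 0.97 and 0.99. The feedback genes were farther apart: the phosphatase gene Dusp1 gave 1.41 (1.27 to 1.56), Zfp36, whose protein speeds the decay of cytokine messages, gave 1.65 (1.46 to 1.83), and Ier3 gave 1.97 (1.68 to 2.26). The orphan receptor Nr4a1 gave 1.83 (1.58 to 2.09). Of 17 tested members, 7 were at least 2-fold higher in progressed mast cells (4.83% of all genes). Jund was the 1 that was 2-fold higher in regressed ones, at 414, 4428 and 709.7 CPM, with -2.64 (-2.86 to -2.43), and without it the list gave 0.94. In macrophages Jund gave -0.85 (-1.03 to -0.67). By the study's methods, tumors were digested with collagenase and trypsin before cells were captured. The part of this step in the immediate early levels was not tested.

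Other immune cells also gave a ratio above 0 for the list, 0.39 (0.37 to 0.41), and with 0.74 (0.72 to 0.77) without neutrophils. Macrophages held 19305, 11049.9 and 20178 CPM, so their untreated and progressed levels were close, whereas progressed mast cells stood above untreated ones. The study's 9 MAPK target genes, which report signalling downstream of Braf, summed to 529, 392 and 663 CPM, with 0.76 (0.43 to 1.09). Phlda1 made up most of the difference, at 99.3, 75.97 and 289 CPM, with 1.93 (1.27 to 2.63), and 1 progressed cell held 25.6% of its UMIs. Dusp4 had 6 and 25 UMIs and Dusp6 differed by 0.12 (-0.40 to 0.65). Without Phlda1 the list gave 0.24 (-0.16 to 0.64). The study used this list on these tumors, so it is not independent evidence of a direction.

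Antigen presentation genes of class I were higher in progressed mast cells. The 9 genes summed to 4318, 4011 and 6609 CPM, with 0.72 (0.62 to 0.82), and 3 of 7 tested members passed 2-fold (4.83% of all genes), the heavy chain H2-K1, the peptide transporter Tap2 and its partner Tapbp. H2-K1 and H2-D1 are close paralogs between which UMIs may be split. B2m, the light chain, stood at 2829, 2325 and 3938 CPM, with 0.76 (0.63 to 0.89). All other immune cells gave 0.32 (0.29 to 0.34). Class II genes went the other way, at 232, 1222 and 370.0 CPM, with -1.72 (-2.04 to -1.42), and H2-Aa, H2-Ab1, H2-Eb1 and Cd74 were each over 2-fold higher in regressed mast cells (12.1% of all genes). All other immune cells gave 1.14 (1.13 to 1.15), the opposite sign. In NK_T cells, which like mast cells are not professional presenters, the class II sum gave -1.70 (-2.09 to -1.33), and Monocytes1 gave -0.78 (-0.83 to -0.73), while NK_T_Cytolytic gave 1.89 (1.75 to 2.03) and macrophages, which are, held 49941.5 and 54111 CPM. The protease RNA outside mast cells was also highest in the regressed tumor, and the part of free RNA in the class II level was not tested.

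Interferon-induced genes were low, at 910.0, 596 and 491 CPM for 13 genes, with -0.28 (-0.60 to 0.038). Isg15 had 1 UMI in regressed and 20 UMIs in progressed cells, in 11 of them, while Ifitm3 differed by -0.73 (-1.16 to -0.30). Survival genes such as Mcl1 and Bcl2 gave -0.017 (-0.30 to 0.26) as a list, and Bcl2l11, which promotes cell death, had 0, 10 and 0 UMIs. Among the cells named Mastcells, Mki67 was found in 1, 2 and 2. Of these, 1 untreated cell held all 11 untreated Mki67 UMIs and 16 of the 17 Top2a UMIs. By the study's methods, clusters rich in dividing cells were set aside. Dividing mast cells placed in such a cluster would not be counted here, so these numbers do not show how rare they were. Heat shock genes gave 0.093 (-0.17 to 0.36). Mitochondrial messages summed to 11863, 7573 and 11987 CPM, with 0.66 (0.59 to 0.74) in mast cells and 0.47 (0.44 to 0.49) in all other immune cells.

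**Figure D4:**
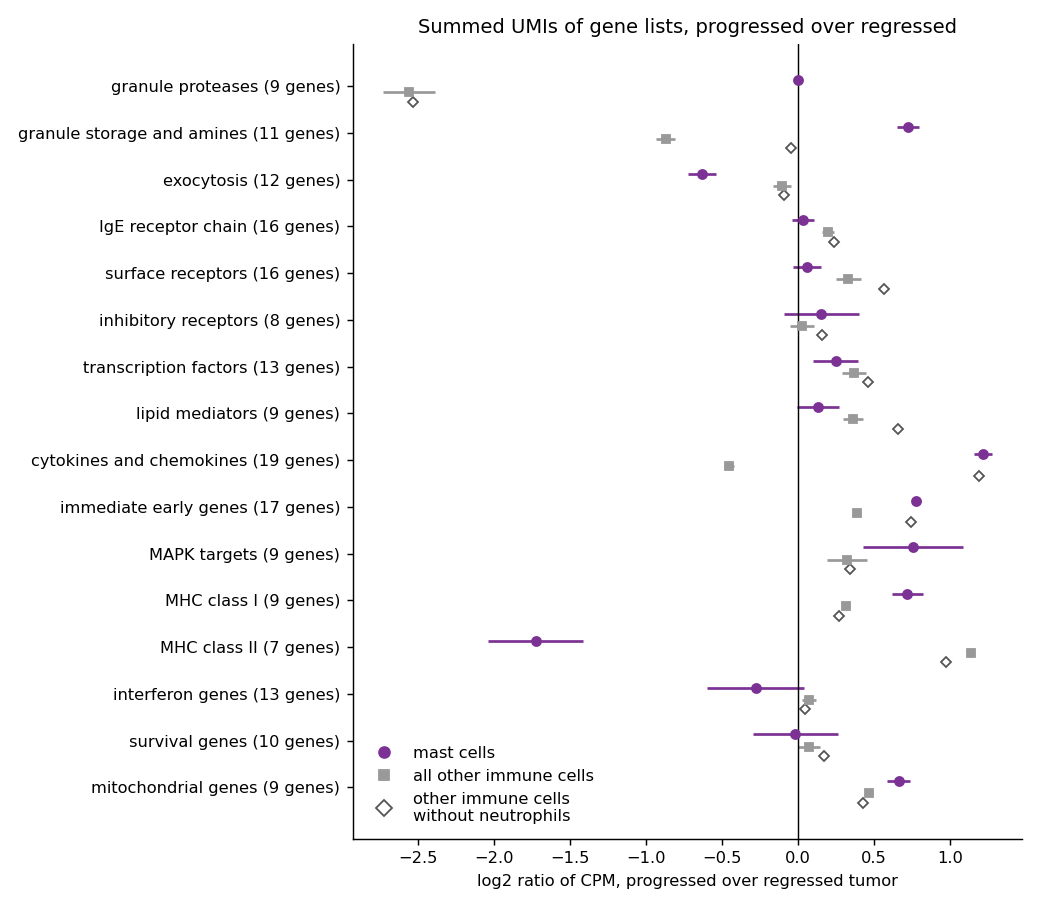
Log2 ratio of CPM, progressed over regressed, of the summed UMIs of 16 gene lists in mast cells (purple circles), all other immune cells (grey squares) and other immune cells without neutrophils (open diamonds), with exact conditional binomial 95% intervals for the first 2. Cytokines lie at 1.22 in mast cells, -0.45 in all other immune cells and 1.19 once neutrophils are left out, while granule storage lies at 0.72, -0.87 and -0.044 in the same 3 sets, although macrophages, Monocytes1, Monocytes2 and NK_T_Cytolytic each gave 0.60 to 0.83.

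Over all genes, 219 of 4530 (4.83%) were at least 2-fold higher in progressed mast cells and 549 (12.1%) at least 2-fold higher in regressed ones, around a median log2 ratio of -0.12. Rescaling by trimmed means changed the split to 355 and 375. Of the genes higher in progressed mast cells, 212 were also tested in other immune cells, where 27 (12.7%) passed 2-fold the same way and 96 (45.3%) were lower in the progressed tumor. Of all 4427 genes tested in both, 2.10% passed 2-fold upward in other immune cells and 68.3% lay below 0. Of those higher in regressed mast cells, 528 were tested, and 164 (31.1%) passed 2-fold the same way and 68 (12.9%) had the opposite sign, against 9.22% and 31.7% of all genes tested in both. The 2 comparisons come from the same 2 libraries. The pool of other immune cells also changed in make-up from the regressed to the progressed tumor. It held 216 and 4 neutrophils, 180 and 17 NK_T cells, 143 and 339 macrophages and 57 and 161 Monocytes2 cells. These counts of genes were not repeated without neutrophils.

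Some of the 12 genes farthest toward the progressed tumor were spread over many mast cells and some were held by 1 or 2. Gadd45b, a stress-induced regulator of growth arrest, had 8 and 97 UMIs in regressed and progressed cells, with 3.75 (2.71 to 5.0), and was found in 37 of 85 progressed cells. Hs3st1, which adds the sulfate that lets heparin bind antithrombin, had 5 and 51 UMIs, with 3.50 (2.18 to 5.18), in 22 progressed cells. Nlrp3, the sensor of an inflammasome, had 0 and 30 UMIs, in 19 progressed cells. Left with the 15 regressed and 15 progressed cells under 3 UMIs of every other type's markers, which hold 14543 and 28821 UMIs in all, Gadd45b, Hs3st1, Nlrp3 and Il13 had 0 UMIs in regressed cells and 21, 6, 4 and 7 in progressed ones. Against the floor of 3 UMIs the lower bounds of their ratios are then 1.82, 0.013, -0.57 and 0.24, so at this depth a difference is not detectable for the last 3. Gadd45b, Hs3st1 and Nlrp3 gave 0.061, -1.35 and 0.0024 in other immune cells. The transporter gene Slco2b1 had 2 and 38 UMIs and the neutrophil attractant Cxcl1 1 and 24, and both were also higher in other immune cells of the progressed tumor, by 2.42 and 2.0. Il13, Prss34 and Ccl4 were described above. The last 4 rest on very few cells: 1 progressed cell held 69% of the Krt17 UMIs, 97.9% of Cst6, 95.2% of Krt6a and 100% of Gpx2. These are genes of keratinocytes and their appendages, apart from the peroxidase gene Gpx2, and the ratios of Krt17 and Cst6 turned below 0 once the 5% of mast cells with the highest totals were left out.

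Most of the 12 genes farthest toward the regressed tumor were also lower in the other immune cells of the progressed tumor, a pool whose make-up changed as given above. The calprotectin genes of neutrophils led the list: S100a8 had 101 and 1 UMIs in regressed and progressed mast cells and S100a9 had 55 and 0. Other immune cells, with their 216 and 4 neutrophils, gave -4.93 and -5.72, and the part of free neutrophil RNA was not tested. Tmem158, known to be induced by Ras signalling, had 222 and 22 UMIs, with -3.19 (-3.89 to -2.55), in 77 of 106 regressed cells, and other immune cells gave -3.57. The same held for Jund, for the transcription factor gene Cebpb with 112 and 10 UMIs, for Igfbp7 with 282 and 38, for the keratin gene Krt15 with 96 and 10, for the histone gene H1f4 with 55 and 1, for the endosome gene Rab5a with 20 and 0 and for the features Mir6236 and Mir7654. Ccl6, a chemokine of myeloid cells, was the exception, with 74 and 3 UMIs in mast cells and 0.88 in other immune cells, and 1 regressed mast cell held 79.7% of its UMIs. Xist, which was kept apart, had 166, 0 and 593 UMIs in mast cells, and Y-linked genes 0, 55 and 0. The study took the regressing tumor under acute treatment and the progressed one at relapse, so time on the drug differs as well. What differs with Xist and Y-linked genes, with time on the drug and with outcome cannot be told apart in these 3 tumors.

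**Figure D5:**
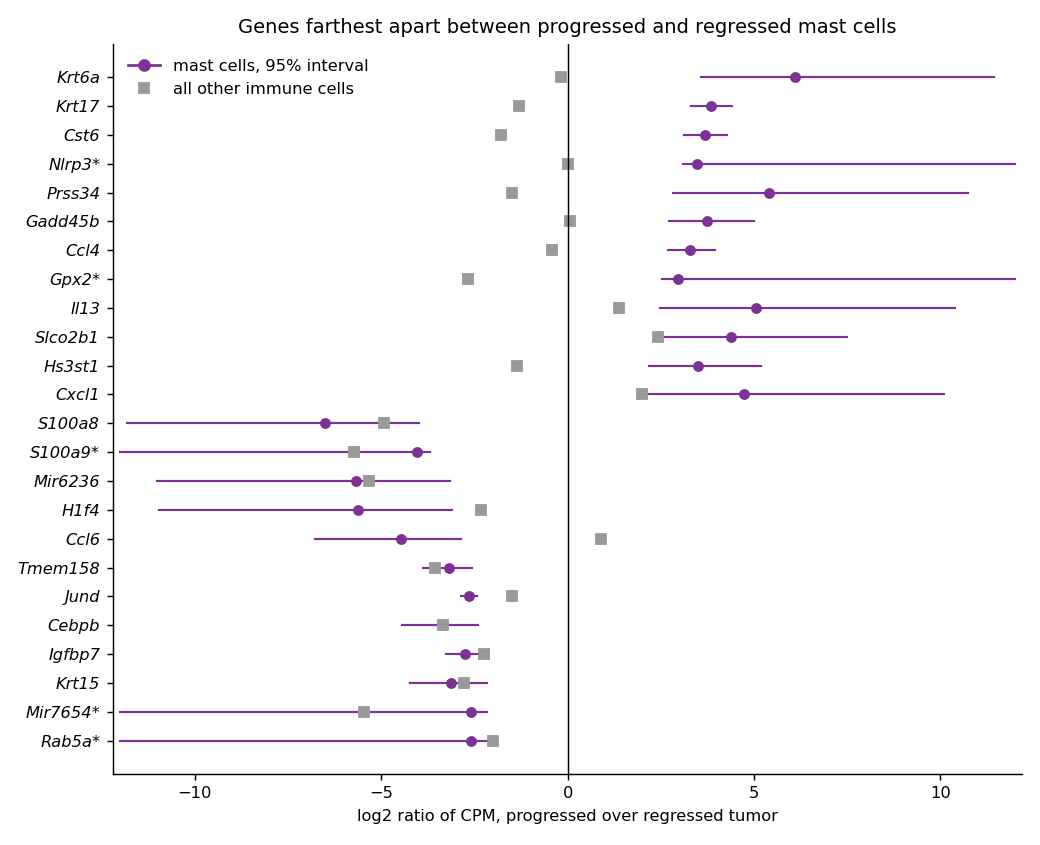
Log2 ratio of CPM, progressed over regressed, of the 12 genes farthest apart in each direction in mast cells (purple, with 95% intervals cut at 12), with all other immune cells as grey squares; an asterisk marks a gene with 0 UMIs in 1 of the 2 mast cell sums, whose ratio is a bound at a floor of 3 UMIs. In the lower 12, other immune cells, a pool with 216 regressed and 4 progressed neutrophils, lie on the same side as mast cells for all but Ccl6.

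Markers of other cell types were counted in the mast cells of each tumor, and their part in the results was not tested. The 6 fibroblast markers summed to 8091, 4273 and 2193 CPM, and 1 untreated cell held 412 of the 489 untreated UMIs. The 5 keratinocyte markers summed to 215, 1267 and 716 CPM, and 1 progressed cell held 108 of 213. The 6 neutrophil markers summed to 993, 529 and 20.2 CPM, in the order of the tumors' neutrophil numbers, and S100a9, Csf3r, Cxcr2 and Retnlg were at 0 in progressed mast cells. The 7 macrophage markers summed to 116, 209.7 and 73.99 CPM and the 7 T and NK cell markers to 16.5, 82.1 and 10.1 CPM, with Ncr1 and Klrb1c at 0 in all 3 tumors. Of the 4 endothelial markers, Cdh5 was at 0 in all 3. Haemoglobin genes summed to 16.5, 1516 and 3.36 CPM. Of the 6 melanocyte and reporter features, Mlana was at 0 in all 3 and the sums were 49.6, 155 and 135 CPM. The transgene feature tWPRE made up 66.7%, 60.8% and 100% of these UMIs, and 1 progressed cell held 22 of the 40 progressed ones. Over 2% of a cell's UMIs came from such a list in 1, 3 and 1 mast cells.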

How the data were processed

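Single cells of 3 mouse melanomas were measured with the 10x 3′ version 2 kit, 1 tumor each for untreated, regressed and progressed. The submitters' processing notes name GSNAP, Seurat 2.2.0 and GRCm38/mm10. The authors deposited, per tumor, a table of UMI counts for 36530 features, not normalized, and a table of the cells they kept, which per the file headers gives each cell's cluster name, a label of unit other. By the study's methods, cells under 300 UMIs were left out. A step that removed doublets is not given in the sources used here, no doublet caller was run, and cells with markers of another type were counted and left out as an alternative. Groups came from the sample titles.

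Counts were summed over the mast cells of a tumor and divided by their total (Python 3.11.15, numpy 2.4.6, scipy 1.17.1, pandas 2.3.3). Sums over all features exceeded the totals in the deposited cell table by 2.97%, 3.08% and 2.63% of mast cell UMIs. Entrez IDs were matched to RefSeq symbols for 31049 features, and the rest held 2.75% of mast cell UMIs. Ratios have exact conditional binomial intervals, levels exact Poisson and shares exact Clopper-Pearson ones, all at 95%. A count of 0 was set to a floor of 3 UMIs. Genes with at least 20 UMIs in the regressed and progressed sums together were tested against a log2 ratio of 1 in size, which is a rule of size and no significance test. Named genes were the 15 that lead the cluster, by the smaller of the ratios to other immune cells in the treated tumors, and the 12 farthest each way by the bound of the interval nearest 0, besides members of the lists. Xist, Y-linked and haemoglobin genes, IDs without a symbol and features with counts equal to another's were kept apart. Members and gene lists were chosen with earlier results of these data known. Scaling factors came from edgeR 4.0.16 and DESeq2 1.42.0 in R 4.3.3, with no test from either. The ratio script was tested on simulated data. Protein sequences were not used here, and some items of the design and of the gene lists are not reported here.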

Additional observations from a re-analysis of the deposited data

Results flagged for a closer look

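The granule storage sum gave a log2 ratio of progressed to regressed of 0.72 in mast cells and -0.87 in all other immune cells. Each side is 1 library per tumor, and the opposite signs were not tested. Without neutrophils, of which the regressed tumor had 216 and the progressed tumor 4, the other immune cells gave -0.044 (-0.11 to 0.026), and within clusters macrophages gave 0.83, Monocytes1 0.60, Monocytes2 0.74 and NK_T_Cytolytic 0.64, on the same side as mast cells, against -0.34 in NK_T cells.

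The cytokine sum gave 1.22 in mast cells and -0.45 in all other immune cells, a difference that was also not tested. Without neutrophils the other immune cells gave 1.19 (1.14 to 1.24), on the same side as mast cells, and macrophages alone gave 1.96 (1.83 to 2.09). The pool behind 1.19 held 143 regressed and 339 progressed macrophages, so its make-up changed as well.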

How the results depend on the processing

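Values are log2 ratios of progressed to regressed mast cells unless stated. Trimmed means of M values gave 0.20 for the protease sum, 0.92 for granule storage, 0.23 for the IgE receptor chain, 0.33 for lipid mediators, 1.41 for cytokines and 0.97 for immediate early genes, and the median of ratios gave 0.13, 0.85, 0.16, 1.34 and 0.91 for all but the lipid mediators. Equal weight per cell gave 0.034 for proteases, 0.84 for granule storage and 1.299 for cytokines. Thinning each cell to 1000 UMIs gave 1.29 for cytokines and 0.73 for immediate early genes. Without cells holding 3 or more UMIs of another type's markers, which left 2, 15 and 15 cells, the values were 0.031 for proteases, 0.81 for granule storage, 0.36 for the IgE receptor chain, -0.19 for lipid mediators, 1.34 for cytokines, 0.89 for immediate early genes and 1.45 for MAPK targets. Leaving out the 5% of cells with the highest UMI totals, they were -0.054 for proteases, 1.29 for cytokines and 0.83 for immediate early genes, and without cells with over 2% of such markers -0.026 for proteases. The count of genes higher in progressed mast cells was 355 under trimmed means, 87 thinned, 46 without mixed cells, 73 at a minimum of 50 UMIs and 839 with no filter beyond 1 UMI. For genes higher in regressed ones it was 125 thinned, 27 without mixed cells, 139 at 50 UMIs and 1916 with no filter, and fewer or more genes and UMIs enter these counts by construction. Of 223 values of named genes under the alternatives, 193 stayed within the counting interval, 27 left it and 3 changed sign: Krt17 at -1.17 and Cst6 at -2.31 without those high-total cells, among which are the cells that held most of these UMIs, and Nlrp3 at -0.57 without mixed cells, a lower bound against 0 regressed UMIs rather than a measured reversal. The cytokine sum of other immune cells turned to 1.19 without neutrophils. As a share of all cells, mast cells were 0.391%, 2.84% and 1.75%, and of immune cells they were 14.3% without neutrophils in the regressed and 16.3% without the cluster Monocytes2 in the progressed tumor. No paired analysis was possible because each group held 1 tumor, and for the same reason no replicate could be left out. Leaving out cells with over 2% of such markers, totals without haemoglobin, the deposited totals, equal weight of the other immune clusters and their pool without neutrophils were chosen after seeing the data.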

Other observations

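Outside the mast cells, RNA of the IgE receptor and of Gata2 was found together in a few cells that the deposited table places elsewhere. With at least 2 Gata2 UMIs and at least 1 UMI of Fcer1a or Ms4a2, a rule chosen after seeing the values, there were 8 such cells among the 216 regressed cells named Neutrophils, 1 in the regressed cluster Monocytes1, 1 among the 391 untreated neutrophils and 0 elsewhere. The 8 cells held 50 of the 55 Gata2 UMIs of that cluster and 75 of its 77 UMIs of Mcpt8, the basophil protease, which stood at 3479 CPM in them and at 15.2 CPM in regressed mast cells. Gata2 stood at 2319 CPM, Cd200r3 at 974 CPM and Hdc at 5751 CPM.

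The mast cell proteases were low and Kit was not found in these cells, whereas the IgE receptor was found. Fcer1a stood at 1113 CPM, in 7 of the 8 cells, and Ms4a2 at 742 CPM, against 3103 and 939 CPM in regressed mast cells. Both genes entered the rule. Kit had 0 UMIs among their 21560, against a level of 1243 CPM in regressed mast cells, though a total of this size cannot show absence. Cma1 had 4, or 186 CPM. Cpa3, Tpsb2 and Mcpt4 stood at 835, 232 and 325 CPM. The neutrophil genes S100a8 and S100a9 had 6 and 4 UMIs, against 16337 and 11340 in all regressed neutrophils, and Retnlg and Csf3r had none. Their Hdc UMIs made up 124 of the 754 in the cluster, so most Hdc RNA of the regressed neutrophils lay in other cells.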
